A study of Mus musculus with 4 samples.

Results

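Integrins, the proteins of focal adhesions and the regulators of the actin cytoskeleton were followed in NIH3T3 fibroblasts after transfection with an siRNA against Timp1. The set holds 47 genes of the 37295 gene names on the array, taken as every non-control probe whose gene name is 1 of the 47, which gave 119 of 56605 probes. There were 2 arrays of siTIMP1 cells and 2 of siControl cells, which received a control siRNA. NIH3T3 is an established mouse fibroblast line grown from embryos, and the labels also call the cells dermal fibroblasts. Both groups were cultured with 2% foetal calf serum and both received an siRNA on apatite nanoparticles, named sCA in the labels, so the carrier was shared by siTIMP1 and siControl cells. Total RNA was the starting material and Cy3 the dye, on Agilent 1-colour arrays of 60-base probes. The labels give no separate cultures for the arrays of a group, and p-values therefore measure only how far these samples differ, a spread that may be technical.

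Integrins are pairs of an alpha and a beta chain that span the membrane and bind matrix proteins such as fibronectin, laminin and collagen. Inside the cell, talin and kindlin activate them, and vinculin, alpha-actinin, filamin and the ILK, PINCH and parvin complex connect them to actin filaments. Focal adhesion kinase, Src, paxillin and p130Cas signal from these sites to small GTPases, whose effectors, the ROCK kinases, raise actomyosin tension, while profilin, cofilin and the thymosins govern the supply of actin monomers.

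Signals are given as log2 of the processed signal minus the 75th percentile of the array, and fold changes as siTIMP1 minus siControl in those units, with the limma standard error (SE). Timp1, which encodes a secreted inhibitor of matrix metalloproteinases, was at 3.28 and 2.98 in siTIMP1 cells, against 8.16 and 8.54 in siControl cells, a log2 fold change of -5.22 (SE 0.158, adjusted p = 0.0105). All 11 fibroblast markers were well above background on all 4 arrays, with summed signals of 2200 and 2220 times the 75th percentile in siTIMP1 cells and 2230 and 2100 in siControl cells. None of the 11 passed the test, and the groups of 3 (27.3%) did not overlap, beside 54.0% of all genes. These were Pdgfra at -0.88 (adjusted p = 0.0618), Lum at -0.37 (adjusted p = 0.103) and Col3a1 at 0.40 (adjusted p = 0.367). Of 6 epithelial markers, Krt8 and Krt14 were well above background on all 4 arrays. Epcam, Cdh1 and Krt5 of that list, 4 of 5 endothelial markers and Myod1, Ckm and Myh3 among 5 skeletal muscle markers were well above background on no array. Of the 5 leukocyte markers kept, Ptprc, Csf1r, Cd3e and Cd68 were above background on all arrays and Adgre1 on none, and the list summed to 7.63 and 6.79 in siTIMP1 cells and 7.98 and 7.93 in siControl cells. Csf1r was at -0.29 and Cd3e at -0.54, with groups that did not overlap, while Ptprc at 0.01 and Cd68 at 0.09 had overlapping groups, and none passed. The part of these markers in the results was not tested. The 4 arrays shared 1 slide and 1 scan, on which siTIMP1 and siControl took different positions, so position and group cannot be told apart.

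Of the 47 genes, 45 had a tested probe, meaning a value on every array and a signal well above background throughout siTIMP1, siControl or both. Tmsb4x, Lpp and Macf1 fell in siTIMP1 cells and no gene of the set rose, at a limma adjusted p under 0.05 over all 26015 tested probes. The 3 lower genes compare with 0.700% of all 17723 tested genes called lower, and the 0 higher with 0.0846% called higher. Because the set was chosen with earlier results of these data known, these shares cannot measure enrichment. Counted by probe, 3 of the 85 tested probes of the set were lower and 0 higher, against 0.627% lower, 0.0615% higher and 0.688% either way among all tested probes. At an unadjusted p under 0.05, 1 gene was higher (Itgav) and 8 were lower (Itga6, Itgb8, Vcl, Macf1, Lpp, Cdc42, Rock1 and Tmsb4x), against 11.8% higher and 7.99% lower among all genes. Leaving out siTIMP1 replicate 1 or siTIMP1 replicate 2 left 0 genes called, as did eBayes without a trend or averaging the probes of each gene, while leaving out siControl replicate 1 gave 6 lower and 2 higher. The median log2 fold change of the 45 genes was -0.04, beside 0.02 for all tested genes. Arrays of RNA from whole cultures cannot tell less RNA per cell from fewer cells that carry the transcript. The 2 groups did not overlap for 22 of 45 genes (48.9%), of which 8 were higher and 14 lower, and for 54.0% of all genes, 31.0% higher and 23.0% lower. For 29 of 45 genes (64.4%) the 95% interval of the log2 fold change lay within 0.5 of zero, against 50.1% of all genes.

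**Figure D1:**
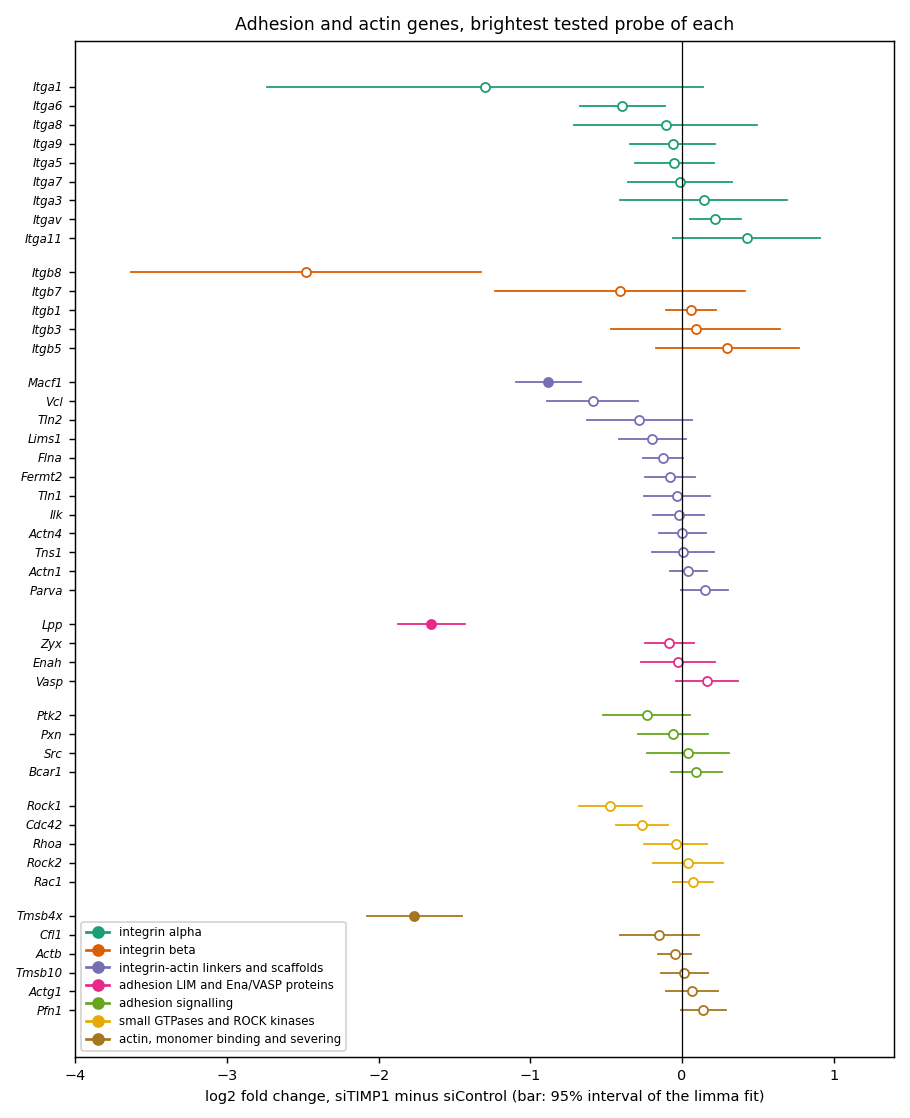
Log2 fold change, siTIMP1 minus siControl, of the brightest tested probe of each of 45 adhesion and actin genes, grouped and coloured by role, with bars for the 95% interval of the limma fit (2 arrays per group). Filled points, Macf1, Lpp and Tmsb4x, passed an adjusted p under 0.05. The signal of Itgb8 in siTIMP1 cells was not well above background, so its point is no measured fold.

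The 3 probes that fell are shown by their middle 30 bases, since each decides the call for its gene. They read 5′ to 3′ as the array files give them. Coordinates of the whole probe are those of the mouse build mm9, and an annotation of that build was not used here, so exons and UTRs are not stated.
Lpp, chr16:24980880-24980939, plus strand: taacaccgttctagaagtatagtcacttta
Tmsb4x, chrX:163645095-163645154, minus strand: gtcctgcaggatgtaaaatgcagtttaatc
Macf1, chr4:123026978-123027037, minus strand: gctctaccaatgaaCTGTTTAaaaacaaga
The capitals in the Macf1 probe mark the letters CTGTTTA, a 7-base word searched because an earlier analysis of these arrays had drawn attention to it. On the probe strand it occurs in 1 of 85 tested probes of the set (1.18%) and in 170 of all 26015 tested probes (0.653%). Its reverse complement, TAAACAG, occurs in 0 probes of the set and in 154 of all tested probes (0.592%).

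Among actin and its monomer-binding and severing proteins, 6 genes were tested and 1, Tmsb4x, fell. Tmsb4x encodes thymosin beta 4, which sequesters actin monomers. Its brightest probe read 5.47 and 5.43 in siTIMP1 cells, against 7.04 and 7.40 in siControl cells. Both siTIMP1 arrays lay below both siControl arrays by more than the gap within either group. The log2 fold change was -1.76 (SE 0.122, adjusted p = 0.0225), so that siTIMP1 cells kept 29.4% of the siControl signal. A dim probe of Tmsb4x designed on an Ensembl transcript read -5.85 and -2.97 in siTIMP1 cells, the first of them not well above background, and -4.20 and -4.10 in siControl cells. Its groups overlapped and its log2 fold change was -0.26 (SE 0.958, adjusted p = 0.898).

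The related monomer-binding gene Tmsb10 read 6.80 and 6.94 in siTIMP1 cells, against 6.88 and 6.83 in siControl cells, a log2 fold change of 0.01 (95% interval -0.14 to 0.17). These groups overlapped, as did those of its second bright probe, at 0.09. Beta-actin (Actb) read 8.98 and 8.99 in siTIMP1 cells and 8.99 and 9.08 in siControl cells, a log2 fold change of -0.05 (95% interval -0.16 to 0.06). Gamma-actin (Actg1) had 3 tested probes between -0.01 and 0.06. Profilin (Pfn1), which delivers monomers to growing filament ends, read 3.91 and 3.89 in siTIMP1 cells and 3.77 and 3.75 in siControl cells, a log2 fold change of 0.14 (adjusted p = 0.292). Its second probe was at 0.54 (adjusted p = 0.14). The Pfn1 groups did not overlap on either probe, but neither difference passed. Cofilin (Cfl1), which severs filaments, had probes at -0.15 and -0.09, both with overlapping groups.

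Of the 4 LIM and Ena/VASP proteins of adhesions, Lpp fell. Lpp encodes the lipoma-preferred partner, a zyxin relative with LIM domains found at adhesions and cell contacts. Its brightest probe read -0.44 and -0.45 in siTIMP1 cells, against 1.22 and 1.20 in siControl cells. The arrays of each group were nearly equal and the groups lay far apart. The log2 fold change was -1.65 (SE 0.0867, adjusted p = 0.0181), with 31.8% of the siControl signal kept and a 95% interval of -1.88 to -1.43.

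A second RefSeq probe of Lpp read -4.14 and -4.06 in siTIMP1 cells, not well above background on siTIMP1 replicate 2, and -2.95 and -3.28 in siControl cells. Its groups did not overlap either, and its log2 fold change was -0.98 (SE 0.262, adjusted p = 0.174). A pair of probes designed on cDNA clones of Lpp lie at the same place, chr16:24685212-24685271 on the plus strand, and are shown because they give a smaller difference than the RefSeq probes. Capitals mark the bases in which they differ, which are T15G, T57A, G59C and T60G, counted from the 5′ end with the first probe's base first.
Lpp clone probe 1: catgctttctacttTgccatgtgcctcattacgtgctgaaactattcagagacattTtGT
Lpp clone probe 2: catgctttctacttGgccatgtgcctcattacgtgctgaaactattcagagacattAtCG
The first read -1.69 and -2.96 in siTIMP1 cells and -2.14 and -1.73 in siControl cells, a log2 fold change of -0.39 (SE 0.441). The second read -1.75 and -2.94 in siTIMP1 cells and -1.98 and -1.97 in siControl cells, a log2 fold change of -0.37 (SE 0.401). On both, siTIMP1 replicate 1 stood above the siControl arrays and siTIMP1 replicate 2 below them, and neither passed the test. The remaining 2 of the 6 Lpp probes were well above background on no array.

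Zyxin itself (Zyx), a tension-sensing partner of Ena/VASP proteins, read 6.33 and 6.40 in siTIMP1 cells and 6.38 and 6.51 in siControl cells, a log2 fold change of -0.08 (95% interval -0.25 to 0.08). Vasp, which speeds filament elongation, had groups that did not overlap, at 1.24 and 1.25 in siTIMP1 cells and 1.06 and 1.11 in siControl cells, but its log2 fold change of 0.16 did not pass (adjusted p = 0.344). Enah, its paralogue, was at -0.03 and -0.16 on 2 probes. On the third Enah probe the siTIMP1 signal was not well above background, and it was tested only through its siControl arrays. Its bound was 1.05-fold lower in siTIMP1 cells, and it did not pass (adjusted p = 0.296). Both siControl readings of that probe, -3.91 and -4.39, lay below the lowest signal above background on siTIMP1 replicate 2, -3.854.

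Of 12 proteins that link integrins to actin, 1 fell, and the groups of 8 (66.7%) did not overlap, beside 54.0% of all genes. Macf1, which encodes a spectraplakin that joins microtubules to actin near adhesions, read 1.68 and 1.78 in siTIMP1 cells, against 2.56 and 2.66 in siControl cells. The siTIMP1 arrays both lay below the siControl arrays, and the log2 fold change was -0.88 (SE 0.0834, adjusted p = 0.0314), with 54.3% of the signal kept. A second Macf1 probe read -1.24 and -0.93 in siTIMP1 cells and -0.44 and -0.46 in siControl cells, in the same direction at -0.63, and did not pass (adjusted p = 0.142). The third was above background on no array.

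Vinculin (Vcl), which reinforces the bond between talin and actin under load, read 3.69 and 3.44 in siTIMP1 cells, against 4.06 and 4.26 in siControl cells. The groups did not overlap, but the log2 fold change of -0.59 (SE 0.117) did not pass over all probes (adjusted p = 0.118). A clone probe of Vcl had overlapping groups and a log2 fold change of -0.11. Talin 1 (Tln1) was at -0.03 on its brightest probe, with readings of 4.69 and 4.88 in siTIMP1 cells and 4.76 and 4.88 in siControl cells. Talin 2 (Tln2) read -0.20 and -0.22 in siTIMP1 cells and 0.23 and -0.09 in siControl cells, a log2 fold change of -0.28 (adjusted p = 0.341).

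In the ILK, PINCH and parvin complex no gene passed. Ilk, the pseudokinase at its centre, was at -0.02 with overlapping groups. Lims1, which encodes PINCH, was at -0.20 (adjusted p = 0.311) and Parva, which encodes alpha-parvin, at 0.15 (adjusted p = 0.281), each with groups that did not overlap on the brightest probe. Kindlin 2 (Fermt2) was at -0.08, filamin A (Flna) at -0.13, tensin 1 (Tns1) at 0.01, and the alpha-actinins Actn1 and Actn4 at 0.04 and 0.00. None of these linkers other than Macf1 passed the test, and the 95% interval of all but Macf1, Vcl and Tln2 lay within 0.5 of zero.

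**Figure D2:**
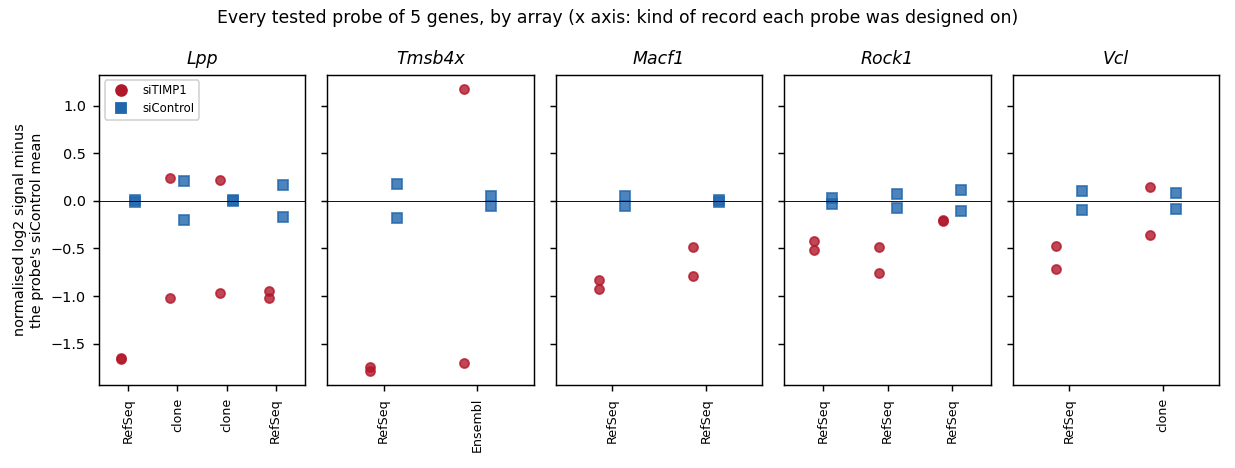
Normalised log2 signal of every tested probe of Lpp, Tmsb4x, Macf1, Rock1 and Vcl on each array, minus that probe's siControl mean, with siTIMP1 arrays as circles and siControl arrays as squares. Probes run along the x axis, brightest first, under the kind of record they were designed on. The siTIMP1 circles of the first probe of each gene lie below the siControl squares, while those of the 2 Lpp clone probes, the Ensembl probe of Tmsb4x and the clone probe of Vcl straddle them.

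No integrin chain passed the test. Of 11 alpha chains, 9 were tested, with a median log2 fold change of -0.05, and 5 of 5 beta chains, with a median of 0.06. Itgb1, the beta chain shared by most matrix-binding integrins, read 5.84 and 5.84 in siTIMP1 cells, against 5.71 and 5.85 in siControl cells, a log2 fold change of 0.06 (95% interval -0.10 to 0.22). The fibronectin-binding alpha chain Itga5 read 3.23 and 3.43 in siTIMP1 cells and 3.30 and 3.46 in siControl cells, a log2 fold change of -0.05 (95% interval -0.31 to 0.21). For both chains the groups overlapped.

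The laminin-binding chain Itga6 read 4.17 and 4.03 in siTIMP1 cells, against 4.36 and 4.63 in siControl cells. The log2 fold change was -0.39 (SE 0.109, adjusted p = 0.182). Further tested probes of Itga6 were at -0.49 and -0.11. Itgav, the alpha chain of vitronectin receptors, read 4.39 and 4.50 in siTIMP1 cells, against 4.20 and 4.25 in siControl cells. Its log2 fold change of 0.22 (SE 0.0651) did not pass (adjusted p = 0.195), and a dim Ensembl probe of Itgav was at -0.18. Neither gene's groups overlapped on the brightest probe.

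Itga11, a collagen-binding chain of fibroblasts, read 2.57 and 2.43 in siTIMP1 cells, against 2.35 and 1.80 in siControl cells, a log2 fold change of 0.42 (SE 0.188, adjusted p = 0.312). Itgb5, a partner of Itgav, read 3.92 and 4.09 in siTIMP1 cells and 3.97 and 3.44 in siControl cells, a log2 fold change of 0.30 (adjusted p = 0.426). Itgb3, the other vitronectin receptor beta chain, read 4.19 and 4.23 in siTIMP1 cells and 3.79 and 4.46 in siControl cells, a log2 fold change of 0.09 (adjusted p = 0.842). In these 3 chains the gap between the siControl arrays was wider than the difference of the group means. Over the 45 genes the gap between the siControl arrays exceeded the size of the log2 fold change for 25 (55.6%), against 46.4% of all genes, and the gap between the siTIMP1 arrays for 13 (28.9%), against 38.8%.

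The dim chains gave bounds or wide intervals. Itgb8, a chain of receptors for latent TGF-beta, read -6.01 and -5.87 in siTIMP1 cells, not well above background on either array, and -3.86 and -3.07 in siControl cells. A bound set by the lowest signals above background was 1.68-fold lower in siTIMP1 cells, which is a limit and not a measured fold. Its test did not pass (adjusted p = 0.106). The bound depends on the processing, since normexp background correction gave a smaller difference, a log2 fold change of -0.38. The lower siControl reading, -3.86, was about the lowest signal above background on siTIMP1 replicate 2, -3.854. The collagen receptor chain Itga1 read -3.96 and -4.45 in siTIMP1 cells, the second not well above background, and -3.68 and -2.13 in siControl cells, a log2 fold change of -1.30 (SE 0.561, adjusted p = 0.304). Leaving out siControl replicate 1 gave -2.07 for Itga1, leaving out siControl replicate 2 gave -0.53, and the value rests in part on a siTIMP1 signal near background. Itgb8 and Itga1 were tested only through their siControl arrays. An untested RefSeq probe of Itgb8 was well above background only on siTIMP1 replicate 1. That probe read -3.90 and -5.95 in siTIMP1 cells and -6.65 and -5.62 in siControl cells. Itgb7, a chain best known from lymphocytes, was at -0.41 with a 95% interval of -1.23 to 0.41. On their brightest probes Itga3, Itga7, Itga8 and Itga9 lay between -0.11 and 0.14, all with overlapping groups. A dim second probe of Itga7 was not well above background in siTIMP1 cells and was tested only through its siControl arrays. It read -5.16 and -4.57 in siTIMP1 cells and -4.32 and -4.41 in siControl cells, without overlap, and did not pass (adjusted p = 0.538). Itga2 was above background only on siTIMP1 replicate 2, and none of the 6 Itga4 probes was above background on any array.

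The 4 signalling proteins of adhesions had log2 fold changes within 0.25 of zero on their brightest probes, and none passed. Focal adhesion kinase (Ptk2) read -0.42 and -0.30 in siTIMP1 cells, against -0.21 and -0.05 in siControl cells, a log2 fold change of -0.23 (SE 0.113, adjusted p = 0.341). Both other probes of Ptk2 had the opposite sign, at 0.28 and 0.32. Paxillin (Pxn), a scaffold that binds the kinase, was at -0.06 and Src, its partner kinase, at 0.04, both with overlapping groups. A second, dim Src probe was not well above background in siTIMP1 cells and was tested only through its siControl arrays. Its bound was 1.24-fold lower in siTIMP1 cells, and it did not pass (adjusted p = 0.386). Bcar1, which encodes the scaffold p130Cas, read 2.82 and 2.84 in siTIMP1 cells and 2.73 and 2.73 in siControl cells on its brightest probe, a log2 fold change of 0.09 (adjusted p = 0.471).

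Of the small GTPases, Rhoa, which drives stress fibres, was at -0.04 (95% interval -0.25 to 0.16) and Rac1, which drives lamellipodia, at 0.07 (95% interval -0.06 to 0.20). Cdc42, which drives filopodia, read 2.40 and 2.42 in siTIMP1 cells, against 2.67 and 2.67 in siControl cells. Its log2 fold change of -0.27 (SE 0.0668) did not pass (adjusted p = 0.16), and a dim probe was at 0.50 with overlapping groups. Rock1, a kinase that raises myosin activity downstream of Rhoa, read 1.68 and 1.59 in siTIMP1 cells, against 2.07 and 2.14 in siControl cells. The groups did not overlap on any of the 3 Rock1 probes, at -0.47 (SE 0.0808, adjusted p = 0.0974), -0.62 (adjusted p = 0.14) and -0.20 (adjusted p = 0.459). Its paralogue Rock2 was at 0.04 on the brightest of 4 probes, which was designed on a cDNA clone. The others, designed on a RefSeq transcript, were at -0.44, -0.33 and -0.27. The groups overlapped on the brightest Rock2 probe and not on the other 3.

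Probes of the same gene could be compared for 30 genes, which gave 40 pairs of a further probe with the brightest one. In 12 genes the tested probes had both signs, in 13 all were negative and in 5 all were positive. The signs were opposite in 15 of 40 pairs, and in 37.1% of the 8292 such pairs on the whole array. In 10 pairs the log2 fold changes were more than 0.5 apart. A limma test of the difference within each array called 0 of the 40 pairs, as it did 0% of all pairs. At an unadjusted p under 0.05 it gave 10 of the 40, against 12.2% of all pairs. These lay in Bcar1, Pfn1, Rock2, Vcl, Lpp, Ptk2 and Enah.

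The widest pair was that of Bcar1, singled out here after its values were seen. Its second probe spans 275 bases of chr8:114239259-114239533 on the minus strand, so its 60 bases bridge a gap in the genome, and it is printed because it differs from the brightest probe.
Bcar1 second probe: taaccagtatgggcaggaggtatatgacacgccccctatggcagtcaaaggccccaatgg
It read -4.09 and -3.37 in siTIMP1 cells, against -2.19 and -0.57 in siControl cells, a log2 fold change of -2.36 (SE 0.58, adjusted p = 0.158). The siControl arrays were themselves far apart on this probe. The difference from the brightest Bcar1 probe was -2.45 (SE 0.588, adjusted p = 0.274). For Lpp the log2 fold changes of the other 3 tested probes were above that of the brightest by 1.28, 1.27 and 0.67 (lowest adjusted p = 0.361). For Tmsb4x the difference between -0.26 and -1.76 had an SE of 0.958 (adjusted p = 0.567).

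**Figure D3:**
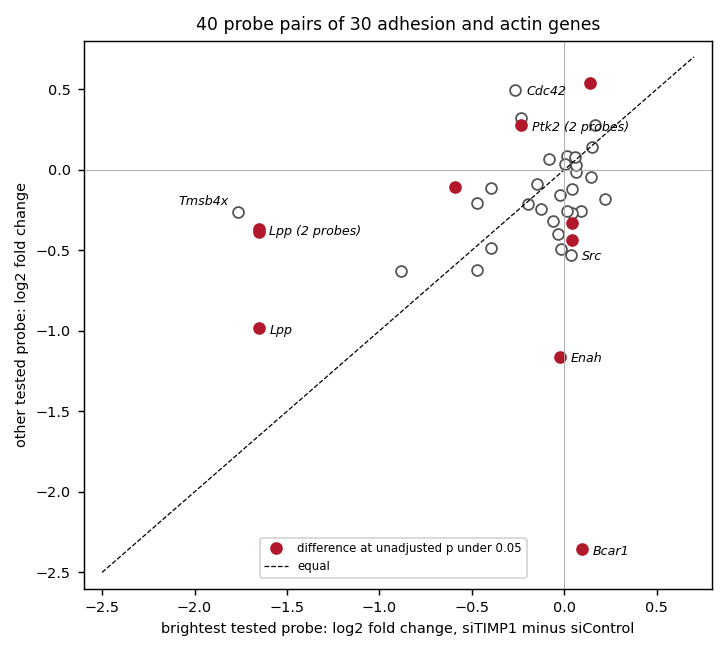
Log2 fold change, siTIMP1 minus siControl, of each further tested probe (y axis) against that of the brightest tested probe of the same gene (x axis), for 40 pairs in 30 genes. The dashed line marks equal values, filled points are pairs whose difference had an unadjusted p under 0.05, and names mark the 10 pairs more than 0.5 apart, of which Bcar1 lies farthest from the line.

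Other genes of the same pathways were taken from 4 lists, 128 genes in all, of which 117 were tested. Like the set, the lists were chosen with earlier results of these data known, so a contrast between them is only descriptive. None passed the test in either direction, and at an unadjusted p under 0.05 there were 13 higher and 9 lower of 117, beside 11.8% higher and 7.99% lower of all genes. Their median log2 fold change was 0.07, beside -0.04 for the 45 genes of the set and 0.02 for all genes.

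Among 11 other integrin subunits, 6 were tested, with a median of -0.23. Itgam, an alpha chain of leukocytes, read 3.17 and 3.15 in siTIMP1 cells and 3.46 and 3.50 in siControl cells, a log2 fold change of -0.32 (adjusted p = 0.114). The leukocyte markers given above were summed lower on both siTIMP1 arrays, with 2 of the 4 tested at a negative and 2 at a positive log2 fold change, and their part in this value was not tested. Itgbl1, a secreted protein with integrin beta repeats, was at 0.43 (adjusted p = 0.235) and Itga10, a collagen-binding chain, at -1.48 (adjusted p = 0.314). Itga10 averaged -1.98 ± 0.02 (SD, n = 2) in siTIMP1 cells and read -1.54 and 0.53 in siControl cells, so that siControl replicate 2 stood far above the other 3 arrays, and its other tested probe was at 0.43. Among 42 other adaptors and kinases, 37 were tested, with a median of 0.06. The adaptor Nck1 was at 0.44 (adjusted p = 0.172), the Rac activator Dock1 at -0.33 (adjusted p = 0.174) and the LIM protein Ajuba at -0.37 (adjusted p = 0.176).

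Of 42 genes of actin assembly and turnover, 41 were tested, with a median of 0.09, and 29 were positive and 12 negative. Capza2 and Capza1, alpha subunits of the protein that caps filament ends, had the smallest p-values. Capza2 read 3.36 and 3.34 in siTIMP1 cells and 2.95 and 2.94 in siControl cells, a log2 fold change of 0.40 (adjusted p = 0.0802), and Capza1 was at 0.28 (adjusted p = 0.103). The 3 tested probes of Capza2 ran from -0.12 to 0.40 and so differed in sign. Abi1, a subunit of the WAVE complex, was at -0.28 (adjusted p = 0.187). All 33 genes of GTPase signalling, actomyosin and cross-linking were tested, with a median of 0.08. Arhgap5, a GTPase-activating protein, was at -0.44 (adjusted p = 0.102), the GTPase Rhoc at 0.17 (adjusted p = 0.153) and the myosin light chain Myl12a at 0.12 (adjusted p = 0.232).

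**Figure D4:**
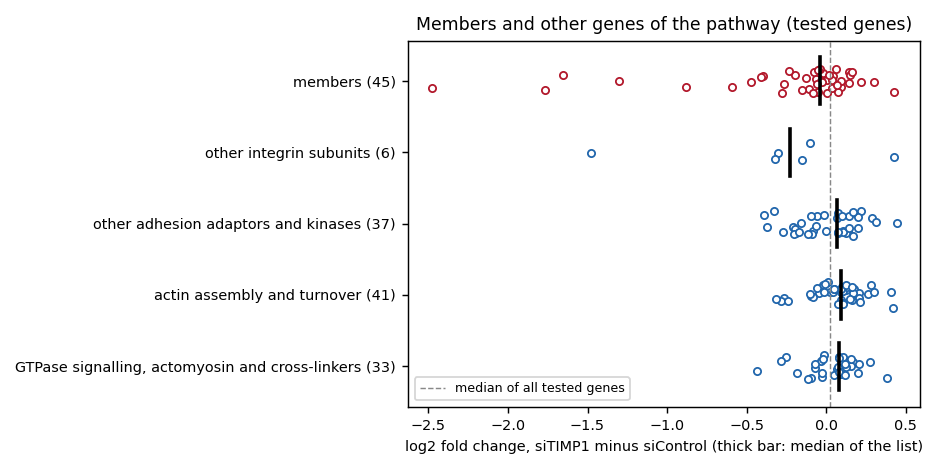
Log2 fold change, siTIMP1 minus siControl, of the brightest tested probe of each gene, for the 45 tested genes of the set (top row) and for 4 lists of other adhesion and actin genes, with the number tested in brackets. Thick bars are list medians and the dashed line is the median of all tested genes, 0.02. The 5 medians lie between -0.23 and 0.09, and the set has a tail of lower genes. In that tail, the siTIMP1 signal of Itgb8 was not well above background on either array, and that of Itga1 was not on siTIMP1 replicate 2. Itga10, of the other integrin subunits, also lies low, at -1.48.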

How the data were processed

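Spot intensity values were deposited as Agilent Feature Extraction 11.5.1.1 scanner output, per the submitters' processing notes. The processed intensity is background-subtracted within its array, per the file headers. The authors' value table holds log2 values, which follow the log2 processed signal minus a constant of 6.9 to 6.96 per array, as found by setting the deposited columns against the arrays. Its medians were -3.99 and -3.91 for siTIMP1 and -3.94 and -3.86 for siControl, and it was used only as an alternative.

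From the scanner files, control spots and 136 to 250 outlier spots per array were left out, and spots of a probe were averaged. No spot was saturated. Well above background were 50.4% and 45.9% of spots on siTIMP1 replicates 1 and 2, and 50.7% and 52.1% on siControl replicates 1 and 2. The lowest signal well above background was -4.575 and -3.854 on the siTIMP1 arrays and -4.576 and -4.68 on the siControl arrays. Dim probes thus faced a higher limit on siTIMP1 replicate 2. Precision is limited by the number of arrays. Groups were taken from sample titles and fitted in limma 3.58.1 under R 4.3.3 (lmFit, eBayes with trend), with Benjamini-Hochberg adjusted p under 0.05 over 26015 tested probes counted as a call. The tested probe that was brightest on average over the 4 arrays stands for its gene, and symbols were updated through RefSeq accessions. The bound for a dim probe uses, per array, the higher of its own signal and the lowest signal well above background. Genes named are those with a called probe, those whose groups do not overlap (up to 20 by p), those below background and 3 per list of smallest p, and the rest of the set is placed in counts or given briefly. The set and all lists were chosen with earlier results of these data known. A further leukocyte marker was removed from its list and is not reported here. Promoter sequence came from RefSeq (GRCm38.p6). Figures used matplotlib 3.10.9. On simulated data the fit recovered 18% of 1.5-fold, 64% of 2-fold and 86% of 4-fold changes, with 19 false calls among 150 calls. Smaller changes can therefore fail to pass, and the share of false calls exceeded the threshold.

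Alternatives were normexp (offset 50), quantile normalization, the percentile over detected probes, other filters, eBayes without trend or robust, outlier spots kept, the authors' table, averaging the probes of each gene, an adjusted p under 0.1, and leaving out each array.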

Additional observations from a re-analysis of the deposited data

How the results depend on the processing

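Lpp, Tmsb4x and Macf1 remained the called genes of the set under normexp, quantile normalization, the percentile over detected probes, the stricter filter, robust eBayes, outlier spots kept and the authors' table, and without siControl replicate 2. Without siTIMP1 replicate 1 or without siTIMP1 replicate 2 no gene of the set was called, and the adjusted p ran from 0.142 to 0.146 in Lpp and Tmsb4x without the first and from 0.184 to 0.195 without the second. Macf1 was then at 0.221 and 0.23. Without siControl replicate 1 there were 6 lower genes, adding Itga6, Rock1 and Vcl, and 2 higher, Itga11 and Itgb5. Leaving out arrays thus gave 0 to 6 lower and 0 to 2 higher genes, 0 to 9 lower and 0 to 2 higher probes, and 0 to 3 higher and 0 to 4 lower genes of the pathway lists. Over all probes it gave 0 to 483 higher and 0 to 840 lower. With 1 array left, the lone sample is assumed to vary like the others.

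Without a trend, 0 genes and 0 probes of the set and 0 of all probes were called in either direction. When the probes of each gene were averaged, 0 genes of the set were called lower, with Lpp at -0.85 (adjusted p = 0.203), Tmsb4x at -1.01 (adjusted p = 0.345) and Macf1 at -0.76 (adjusted p = 0.0838). With no filter, 124 probes were called higher and 334 lower over the array, Rock1 passed (adjusted p = 0.0475), 1 pathway gene was called higher, and the median of all genes was 0.14. Robust eBayes gave 61 higher and 249 lower. An adjusted p under 0.1 gave 181 and 384, with Rock1 and 1 pathway gene added, against 16 and 163 at 0.05. With normexp, 1 probe pair of the set was called. The Timp1 log2 fold change was -5.41 to -5.04 when arrays were left out, with adjusted p = 0.137 without siTIMP1 replicate 1 and 0.184 without siTIMP1 replicate 2, and -5.22 with adjusted p = 0.133 without a trend. The median of the set was -0.10 to 0.02 over these omissions. The cause was not tested. Averaging the probes of each gene turned the sign of some uncalled genes whose groups do not overlap. Among them were Bcar1 at -1.13 (adjusted p = 0.199), Cdc42 at 0.12 (adjusted p = 0.773) and Ptk2 at 0.12 (adjusted p = 0.616). No paired analysis was possible because the labels number no replicates across siTIMP1 and siControl. Dim probes such as those of Itgb8 and Itga1 are limited by signal over background.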

Other observations

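In promoter windows from RefSeq (GRCm38.p6, 250 bases before to 50 after the gene start), a CArG box, the site that serum response factor is known to bind, was found by its letters on either strand in 3 of 37 matched genes of the set (8.11%) and in 488 of all 27025 genes with a window (1.81%). The 30 bases around each match are shown with the match in capitals.
Actg1, chr11:120348566-120348595, minus strand: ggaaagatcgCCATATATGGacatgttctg
Vcl, chr14:20929161-20929190, plus strand: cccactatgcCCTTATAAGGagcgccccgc
Fermt2, chr14:45530250-45530279, minus strand: tccttcatttCCATAAAAGGgcagcgctcc
The log2 fold changes of these genes, siTIMP1 minus siControl, were 0.06 for Actg1, -0.59 for Vcl and -0.08 for Fermt2, and none passed the limma test. Whether any factor binds there was not measured.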
